A study of Homo sapiens with 18 samples.

Results

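TAF1D, on chromosome 11, carries 6 H/ACA box small nucleolar RNAs (snoRNAs) in its introns: ACA40, ACA18, ACA8, ACA1, ACA32 and ACA25. They were taken by name and host gene, and are 6 of the 2462 small RNA features in the deposited table and 6 of its 103 H/ACA box snoRNAs. HEK293T cells, a human embryonic kidney line, were grown with serum and then kept without it for 24 h, in every group. Small RNA was sequenced from the cells and from the extracellular vesicles (EVs) they had released, for wild type cells, an ATG7-/- clone (F2) and an ATG12-/- clone (D9). Each of the 6 groups has 3 libraries that the labels number as biological replicates. Each knockout is a single clone, so clone and genotype cannot be told apart, and the ATG7 and ATG12 mRNAs were not analysed here. The comparisons ask which small RNAs depend, in vesicles or in cells, on the enzymes that attach LC3 to membranes.

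H/ACA box snoRNAs fold into a pair of hairpins joined by a hinge, the H box, and end in a short tail with an ACA box. With dyskerin and its partner proteins they form particles that pair with ribosomal RNA and turn chosen uridines into pseudouridines. Most human snoRNAs are released from the spliced introns of a host gene, so several can come from 1 primary transcript. TAF1D encodes a subunit of SL1, the factor that brings RNA polymerase I to the ribosomal RNA promoter. ATG7 is the E1-like enzyme that activates both LC3 and ATG12, and ATG12, joined to ATG5, promotes the transfer of LC3 to membrane lipid.

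In GENCODE release 29 on the GRCh38 build, TAF1D runs over chr11:93729948-93784391 on the minus strand and has 22 transcripts. In 1 of them, TAF1D-202, which has 10 exons and is typed as a target of nonsense-mediated decay, the 6 H/ACA snoRNAs and 2 C/D box snoRNAs, SNORD5 and SNORD6, each lie in an intron of their own. From the 5′ end of the gene, ACA40 (gene SNORA40, 126 nt) lies in intron 2 at chr11:93735111-93735236. ACA18 (SNORA18, 132 nt) lies in intron 3 and SNORD5 in intron 4. ACA8 (SNORA8, 139 nt) lies in intron 5 at chr11:93732361-93732499 and ACA1 (SNORA1, 130 nt) in intron 6 at chr11:93732004-93732133. SNORD6 is in intron 7, ACA32 (SNORA32, 121 nt) in intron 8 at chr11:93730979-93731099, and ACA25 (SNORA25, 134 nt) in intron 9 at chr11:93730513-93730646. In 1 to 4 of the other transcripts an exon overlaps a given member. The sequences of 5 of the RNAs are shown in that order, along which no trend was tested:
ACA40: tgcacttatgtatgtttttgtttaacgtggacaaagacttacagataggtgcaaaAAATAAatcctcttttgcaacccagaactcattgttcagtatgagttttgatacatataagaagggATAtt
ACA8: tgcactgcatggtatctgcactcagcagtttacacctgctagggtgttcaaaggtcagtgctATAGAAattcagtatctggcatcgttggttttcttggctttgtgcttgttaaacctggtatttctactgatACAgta
ACA1: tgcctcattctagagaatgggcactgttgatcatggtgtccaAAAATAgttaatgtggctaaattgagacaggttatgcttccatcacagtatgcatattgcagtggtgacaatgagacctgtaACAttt
ACA32: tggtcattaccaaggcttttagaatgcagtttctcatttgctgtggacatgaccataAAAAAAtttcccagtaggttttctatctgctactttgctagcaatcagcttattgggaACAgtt
ACA25: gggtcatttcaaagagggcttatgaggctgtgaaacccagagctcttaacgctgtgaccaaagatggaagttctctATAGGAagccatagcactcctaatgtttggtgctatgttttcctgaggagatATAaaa
Capitals mark a match to ANANNA, the letters of the H box, and the last box of 3 bases. The match shown lies at least 40 bases from either end and is the one nearest the middle, with matches that are unpaired in a predicted fold taken first. It is unpaired throughout in ACA40, ACA8 and ACA32 but not in ACA1 and ACA25. ACA8, ACA1 and ACA32 end in ACA followed by 3 bases. ACA25 and ACA40 have ATA in its place, followed by 3 and 2 bases. The tail of ACA40 depends on the annotation: RefSeq sets its 3′ end at chr11:93735110, beyond the GENCODE end at chr11:93735111. Among 137 annotated SNORA transcripts of 100 to 160 nt, 97.8% hold ANANNA in that window on the transcript strand, 85.4% have ACA 2 to 5 bases from the end and 15.3% have ATA there. The 5 are not close copies of each other: identity over their 10 pairs ran from 51.3 to 56.0%. Their GC content was lowest in ACA40, at 32.5%, then 38.0% in ACA32, 40% in ACA1, 42.4% in ACA8 and 43.3% in ACA25. Each of the 5 has related snoRNA copies elsewhere in the annotation, aligned over at least 80% of its length with no minimum identity set. They number from 2 for ACA32 to 12 for ACA40. The closest copy is 96.9% identical for ACA40 (SNORA40B), 95.5% for ACA1, 94.2% for ACA8, 87.8% for ACA25 and 85.2% for ACA32. How reads that fit several copies were counted is not given in the sources used here, so part of a member's reads could come from a copy.

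Values are normalised reads, meaning reads divided by 1 size factor per library. Libraries held 1188388 to 1804089 assigned reads in cells and 1881080 to 3382605 in EVs, and 1 read was worth 0.477 to 1.89 normalised reads. The fewest reads behind a member were 10, for ACA8 and for ACA32 in ATG7-/- EVs, so these values carry the widest counting error. The 6 snoRNAs took 0.337% ± 0.0173 (SD, n = 3) of the assigned reads in wild type cells, 0.343% ± 0.0290 in ATG7-/- cells and 0.354% ± 0.0330 in ATG12-/- cells. In EVs the share was 0.0768% ± 0.00670 for wild type, 0.0175% ± 0.00350 for ATG7-/- and 0.0571% ± 0.00990 for ATG12-/-. Shares and normalised reads are relative within a library, so less snoRNA and more of the other small RNAs cannot be told apart. The number of vesicles and the RNA per vesicle cannot be read from them either. Of a list of 8 microRNAs known from blood and liver, 7 had a value, with a sum of 90.5 to 134 normalised reads in wild type EVs, 181 to 263 in ATG7-/- EVs and 247 to 330 in ATG12-/- EVs. Most of the sum was miR-486-5p, of red cells, with means of 54.2, 127 and 166 in these groups, and miR-150-5p, of lymphocytes, with 38.2, 67.8 and 93.1. The other 5 were low: miR-223-3p, of myeloid cells, had means of 9.01, 8.50 and 14.1, and miR-122-5p, of liver, 4.76, 8.07 and 5.24. In cells the sum was 1.27 to 11.4, with 3 or 4 of the 7 at 0 in every library of a group. In EVs miR-144-3p was at 0 throughout the ATG7-/- group. Their part in the snoRNA results was not tested.

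**Figure D1:**
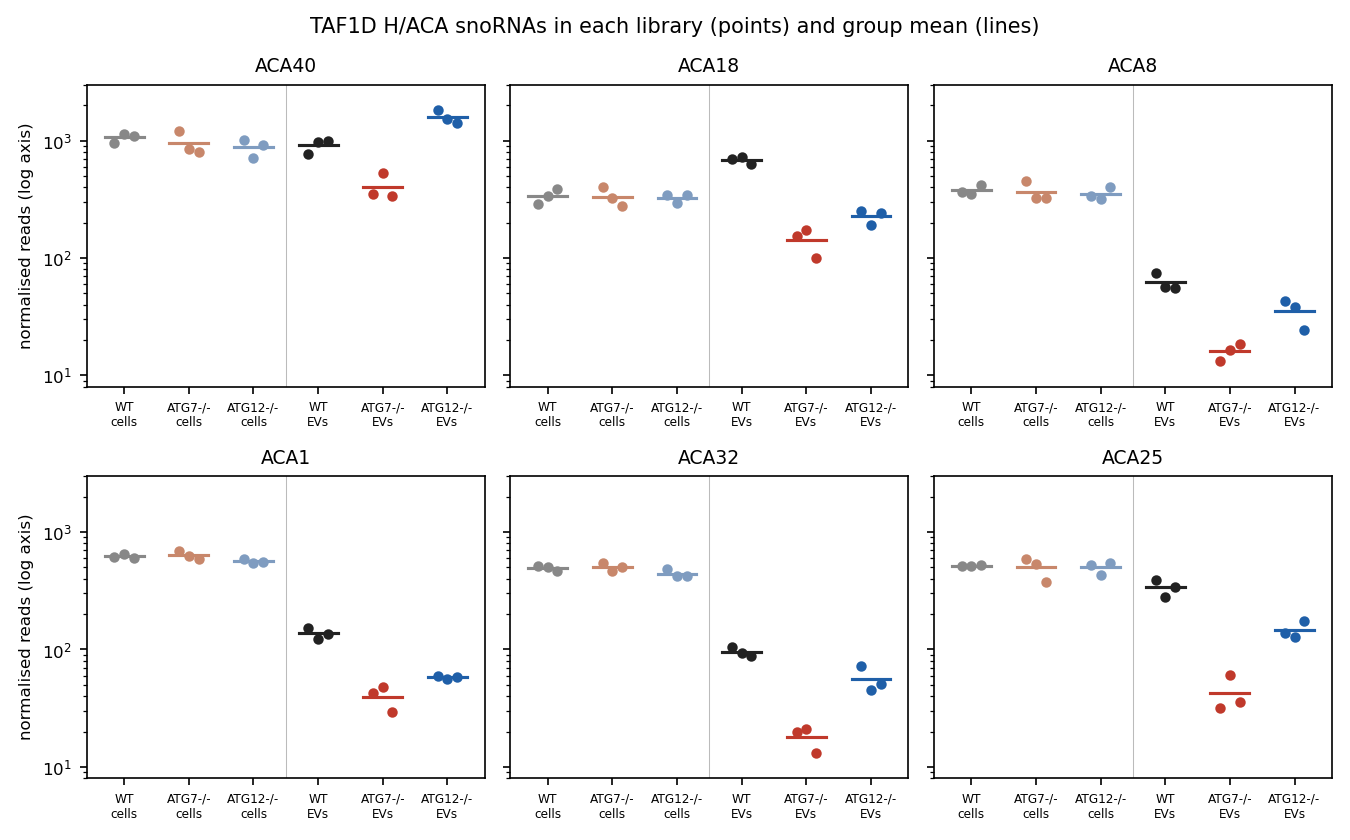
Normalised reads (log axis) of each TAF1D H/ACA snoRNA in each library (points) with the group mean (lines), for wild type (WT), ATG7-/- and ATG12-/- cells and EVs. Cell groups sit at like levels, ACA8, ACA1 and ACA32 are lower in every EV library than in every cell library, and only ACA40 has its highest values in ATG12-/- EVs.

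Wild type EVs did not hold the 6 snoRNAs in the proportions of the cells. ACA8, ACA1 and ACA32 were 4.53 to 6.02-fold lower in EVs than in cells, ACA25 was 1.54-fold lower, ACA40 did not pass the test and ACA18 was 2.04-fold higher. In this comparison 42.9% of all features tested were called lower in EVs and 38.9% higher. Of the 87 other H/ACA snoRNAs tested 51 were lower and 27 higher, and of 136 C/D box snoRNAs 113 and 12. ACA8 had 75.2, 56.7 and 55.4 normalised reads in the 3 wild type EV libraries and 364, 354 and 416 in the cell libraries. Its log2 difference was -2.59 (SE 0.21, limma adjusted p = 1.262e-10), and the groups were far apart. ACA32 had 104, 94.0 and 87.5 in EVs and 519, 501 and 467 in cells (log2 difference -2.37, SE 0.18, limma adjusted p = 5.944e-11). ACA1 had 153, 122 and 136 in EVs and 613, 649 and 602 in cells (log2 difference -2.18, SE 0.16, limma adjusted p = 2.527e-11). These 3 lie in introns 5, 6 and 8. ACA25, from the last intron, had 389, 281 and 343 in EVs and 512, 519 and 521 in cells, groups that did not overlap (log2 difference -0.63, SE 0.21, limma adjusted p = 0.009645). Without wild type EV replicate 2 its adjusted p was 0.0557. ACA18 had 692, 722 and 638 in EVs and 285, 340 and 388 in cells, the reverse order (log2 difference 1.03, SE 0.19, limma adjusted p = 3.664e-05). ACA40 had 773, 962 and 991 in EVs and 952, 1133 and 1102 in cells, with overlap (log2 difference -0.23, 95% interval -0.63 to 0.17, limma adjusted p = 0.2711).

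The same 3 snoRNAs were the farthest below the cell level in knockout EVs. In ATG7-/- EVs all 6 were lower than in ATG7-/- cells, where 42.8% of all features were called lower and 40% higher. The log2 differences were -4.75 for ACA32, -4.42 for ACA8, -3.99 for ACA1, -3.55 for ACA25, -1.24 for ACA18 and -1.24 for ACA40. In ATG12-/- EVs 5 were lower than in ATG12-/- cells, against 41.1% of all features lower and 39.2% higher. Their log2 differences were -3.32 for ACA8, -3.26 for ACA1, -2.99 for ACA32, -1.76 for ACA25 and -0.51 for ACA18, while ACA40 was higher by 0.86 (SE 0.19, limma adjusted p = 0.0003046). The ACA18 call ended without ATG12-/- EV replicate 2 (adjusted p = 0.0912) or ATG12-/- cell replicate 1 (adjusted p = 0.0520). These differences rest on the scaling between EVs and cells. When libraries were scaled to their assigned reads, the median log2 difference of all features moved by -1.51 in wild type, -2.07 in ATG7-/- and -2.10 in ATG12-/-. All 6 were then lower in the EVs of each genotype, with ACA18 at -0.49 and ACA40 at -1.75 in wild type and ACA40 at -1.24 in ATG12-/-. The order of the 6 within a library does not depend on that scaling.

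**Figure D2:**
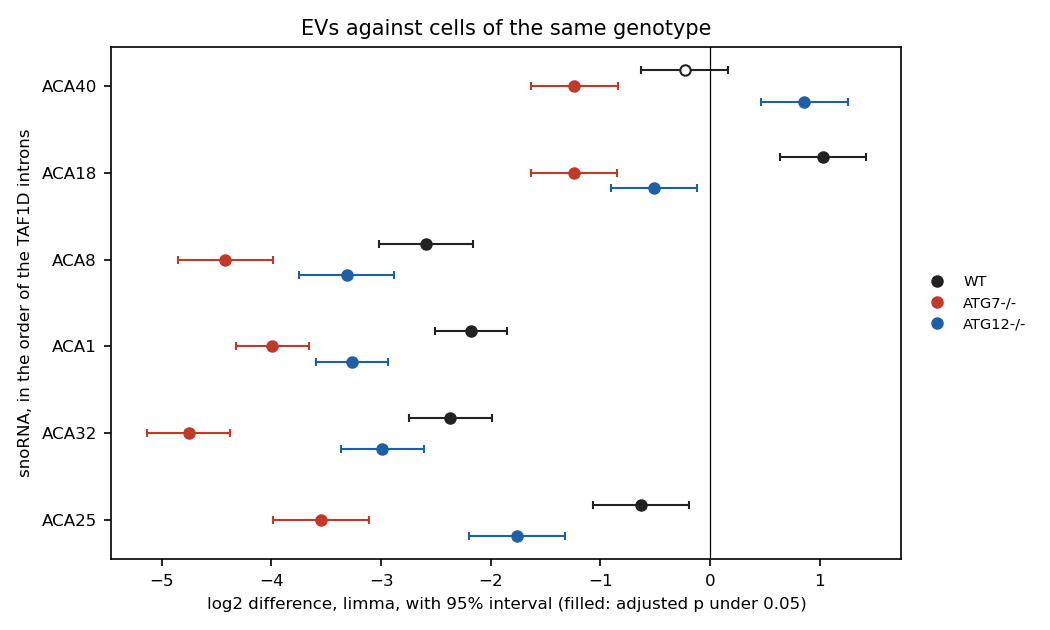
Log2 difference between EVs and cells of the same genotype for each TAF1D H/ACA snoRNA, ordered by intron, as limma estimates with 95% intervals, filled where the adjusted p was under 0.05. ACA40 and ACA18, the first of the 6 along the gene, lie at the right in every genotype, and ACA8, ACA1 and ACA32 at the left. ACA25, from the last intron, lies between them. With libraries scaled to assigned reads every value falls below 0.

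All 6 snoRNAs were lower in ATG7-/- EVs than in wild type EVs. The fall was 7.98-fold for ACA25, 5.14-fold for ACA32, 4.89-fold for ACA18, 3.72-fold for ACA8, 3.44-fold for ACA1 and 2.28-fold for ACA40. All 6 passed the test, against 28.9% of the 850 features tested called lower and 33.5% called higher. The median log2 change was -2.09 over the 6 and 0.11 over all features tested. ACA25 had 31.6, 60.7 and 35.8 normalised reads in the ATG7-/- EV libraries, beside the 281 to 389 of wild type EVs (log2 change -3.00, SE 0.23, limma adjusted p = 2.267e-07). Its change ranked 28 from the lowest of 850. ACA32 had 19.8, 21.0 and 13.3 (log2 change -2.36, SE 0.24, limma adjusted p = 1.927e-06). ACA18 had 153, 174 and 101, beside 638 to 722 in wild type EVs (log2 change -2.29, SE 0.19, limma adjusted p = 4.031e-07). These 3 fell the most, and they come from introns 9, 8 and 3.

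ACA8 had 13.2, 16.4 and 18.6 normalised reads in ATG7-/- EVs (log2 change -1.90, SE 0.26, limma adjusted p = 3.107e-05). ACA1 had 42.2, 47.9 and 29.2 (log2 change -1.78, SE 0.20, limma adjusted p = 5.847e-06). ACA40 had 348, 530.2 and 337 (log2 change -1.19, SE 0.18, limma adjusted p = 6.956e-05), the least change of the 6. No member's ATG7-/- EV range met its wild type EV range. Overlap was not counted over all features, of which 28.9% were called lower and 33.5% higher. The lack of overlap thus does not mark the members out. Of the 82 other H/ACA snoRNAs tested 78 were lower and 0 higher, with a median log2 change of -1.97. Of 127 C/D box snoRNAs, which guide methylation of ribosomal RNA, 108 were lower and 2 higher (median -1.54). Beside this, miR-486-5p was 2.25-fold and miR-150-5p 1.82-fold higher in ATG7-/- EVs (limma adjusted p = 0.0003413 and 0.008516), while miR-223-3p, the only other one of that list tested, had a log2 change of -0.05 (0.926). The miR-150-5p call was lost with library totals (adjusted p = 0.0930) and with edgeR (0.0552).

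In ATG12-/- EVs 5 members were lower than in wild type EVs and ACA40 was higher. In this comparison, which shares its 3 wild type EV libraries with the ATG7 comparison, 21.1% of the 850 features were called lower and 22.6% higher. ACA18 was 3.00-fold lower, ACA1 2.34-fold, ACA25 2.28-fold, ACA8 1.78-fold and ACA32 1.72-fold. ACA40 was 1.75-fold higher, and its change ranked 764 from the lowest of 850. ACA40 had 1832, 1516 and 1414 normalised reads in ATG12-/- EVs, above the 773 to 991 of wild type EVs and the 337 to 530.2 of ATG7-/- EVs. Its log2 change was 0.80 (SE 0.18, 95% interval 0.41 to 1.19, limma adjusted p = 0.002674). This call depends on the scaling: with libraries scaled to their assigned reads the log2 change was 0.45 (adjusted p = 0.0732), and with factors computed from microRNAs it was 0.49 (adjusted p = 0.126). The median log2 change of all features shifted by -0.36 and -0.31 with them.

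ACA18 had 251, 192 and 243 normalised reads in ATG12-/- EVs, below every wild type EV library and above every ATG7-/- EV library (log2 change -1.58, SE 0.19, limma adjusted p = 3.14e-05). ACA1 had 59.3, 55.7 and 58.5 (log2 change -1.22, SE 0.20, limma adjusted p = 0.0003622). ACA25 had 139, 129 and 175 (log2 change -1.19, SE 0.23, limma adjusted p = 0.001136). These 3 kept their call without any 1 library. ACA8 had 42.7, 38.5 and 24.5 (log2 change -0.83, SE 0.26, limma adjusted p = 0.02026), and ACA32 had 71.7, 45.1 and 50.9 (log2 change -0.78, SE 0.24, limma adjusted p = 0.01748). The ACA8 call was lost without wild type EV replicate 1 (adjusted p = 0.0687) or ATG12-/- EV replicate 3 (0.0978), and when features of low value were kept in the test (0.0537). The ACA32 call was lost without ATG12-/- EV replicate 2 (adjusted p = 0.0777) or replicate 3 (0.0579). Of the 82 other H/ACA snoRNAs, 45 were lower and 5, like ACA40, higher. The 5 became 3 with library totals and 2 with microRNA factors. Of the C/D box snoRNAs 63 of 127 were lower and 8 higher (3 and 4 higher with those scalings). Beside this, miR-486-5p was 3.01-fold and miR-150-5p 2.49-fold higher in ATG12-/- EVs (limma adjusted p = 6.693e-05 and 0.0008906), and miR-223-3p had a log2 change of 0.56 (0.2984).

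**Figure D3:**
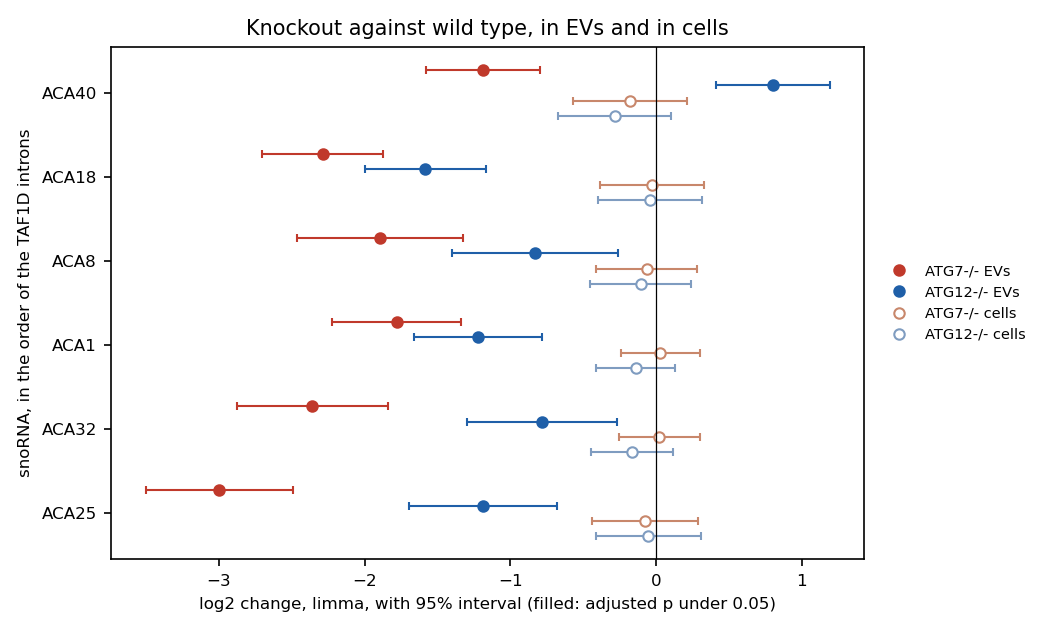
Log2 change of each TAF1D H/ACA snoRNA in ATG7-/- and ATG12-/- EVs and cells against wild type, as limma estimates with 95% intervals, filled where the adjusted p was under 0.05 and open otherwise. All 6 are left of 0 in ATG7-/- EVs, ACA40 alone is right of 0 in ATG12-/- EVs (0.80, not called with library totals or microRNA factors), and no cell value passed the test.

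Set directly against each other, ATG12-/- EVs held more of all 6 snoRNAs than ATG7-/- EVs, where 26.6% of the 850 features were called higher and 23.3% lower. The difference was 3.98-fold for ACA40 (log2 difference 1.99, SE 0.18, limma adjusted p = 8.298e-06), 3.51-fold for ACA25, 2.99-fold for ACA32, 2.09-fold for ACA8, 1.63-fold for ACA18 and 1.47-fold for ACA1. The ranges of the groups did not overlap for any of the 6. Overlap was not counted over all features, so this does not mark the members out. ACA40, ACA25 and ACA32 ranked 841, 836 and 808 from the lowest of 850. The ACA1 call (limma adjusted p = 0.0375) was lost in 9 of 16 alternatives, with adjusted p-values up to 0.153. It was lost without ATG7-/- EV replicate 1 (0.0564) or replicate 3 (0.153) and without ATG12-/- EV replicate 1 (0.0823), 2 (0.0716) or 3 (0.0837). The replicate block gave 0.0591. Among the other H/ACA snoRNAs, 71 of 82 were higher in ATG12-/- EVs and 0 lower.

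In the cells themselves no member passed the test in any of the 3 comparisons. limma called 0 of 6 in each, 0 of 6 had an unadjusted p under 0.05, and edgeR and DESeq2 on the recovered reads also called 0. In ATG7-/- against wild type cells 8.32% of the 853 features tested were called lower and 8.44% higher, in ATG12-/- against wild type 18.2% and 7.5%, and in ATG12-/- against ATG7-/- 14.4% and 5.63%. ACA1 had 694, 626 and 588 normalised reads in ATG7-/- cells and 587, 547 and 557 in ATG12-/- cells, beside 602 to 649 in wild type. The ATG12-/- cell range of ACA1 lay below its wild type range, but overlap was not counted over all features. The log2 change of ACA1 was 0.03 (95% interval -0.24 to 0.30) in ATG7-/- cells and -0.14 (-0.41 to 0.13) in ATG12-/- cells. ACA40 had 1211, 846 and 800.2 in ATG7-/- cells and 1011, 710 and 918 in ATG12-/- cells, with overlap between all 3 groups. Its log2 changes were -0.18 (-0.57 to 0.21) and -0.28 (-0.68 to 0.11), the lowest of the 6 in each comparison.

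ACA18 had 402, 322 and 276 normalised reads in ATG7-/- cells and 346, 292 and 341 in ATG12-/- cells. ACA8 had 451, 322 and 323, then 336, 319 and 402. ACA32 had 544, 464 and 505 in ATG7-/- cells and 485, 425 and 420.3 in ATG12-/- cells. ACA25 had 588, 530 and 379, then 524, 428 and 550.3. Each of these 4 overlapped its wild type range in both knockouts, and their 95% intervals ran from -0.45 at the lowest to 0.33 at the highest. With factors computed from microRNAs, which shifted the median log2 change of all features by -0.51 in ATG7-/- cells, all 6 were called lower there, with log2 changes of -0.48 to -0.69. With the same factors 60.7% of the 852 features tested were called lower. No other alternative made such a call.

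The change in EVs was then set against the change in cells of the same knockout, in 1 model over all 18 libraries. For ATG7 the EV change was the lower of the 2 for all 6, against 28.7% of the 905 features tested called lower and 26.3% higher. The difference of log2 changes was -2.92 for ACA25, -2.38 for ACA32, -2.26 for ACA18, -1.83 for ACA8, -1.81 for ACA1 and -1.01 for ACA40 (SE 0.27, limma adjusted p = 0.00347). With microRNA factors ACA40 lost its call (-0.61, limma adjusted p = 0.0612). Of the 87 other H/ACA snoRNAs 77 were lower and 0 higher, with a median of -1.88. For ATG12 the EV change was lower for 3 members and higher for 1, where 12% of features were called lower and 14.4% higher. Here 31 of the 87 other H/ACA snoRNAs were lower and 8 higher (52 and 2 of 89 with library totals). ACA18 was at -1.54 (SE 0.27, limma adjusted p = 0.0003056), ACA25 at -1.13 (SE 0.30, 0.007904), ACA1 at -1.08 (SE 0.23, 0.001531) and ACA40 at 1.09 (SE 0.27, 0.005677). ACA8 was at -0.73 (95% interval -1.33 to -0.12, limma adjusted p = 0.07251) and ACA32 at -0.62 (-1.15 to -0.09, limma adjusted p = 0.08126), which did not pass. Both passed with edgeR, with TMM factors over all features, with library totals and without ATG12-/- EV replicate 1. With library totals ACA40 was at 0.50 (adjusted p = 0.160).

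Shares within the 6 do not depend on how libraries are scaled. In cells ACA40 held 31.1% ± 1.58 (SD, n = 3) of the members' reads in wild type, 28.7% ± 2.09 in ATG7-/- and 28.5% ± 2.33 in ATG12-/-. In EVs it held 40.8% ± 4.74 in wild type, 60.9% ± 3.15 in ATG7-/- and 75.0% ± 2.71 in ATG12-/-. The 3 EV groups did not overlap each other, from 35.4 to 44.0%, from 57.3 to 63.0% and from 71.9 to 76.7%. ACA40 therefore held more of the members' reads in both knockout EVs, although its normalised reads were lower in ATG7-/- and higher in ATG12-/-. ACA18 held 30.8% ± 2.11 in wild type EVs, 21.5% ± 3.28 in ATG7-/- EVs and 10.9% ± 1.36 in ATG12-/- EVs, beside 9.87 to 10.6% (group means) in cells. ACA25 held 15.2% ± 2.62 in wild type EVs, 6.35% ± 1.02 in ATG7-/- EVs and 7.08% ± 1.63 in ATG12-/- EVs, and 15.1 to 16.3% in cells. ACA1 held 6.16%, 6.01% and 2.76% in wild type, ATG7-/- and ATG12-/- EVs and 18.2 to 19.5% in cells. ACA32 held 4.28%, 2.74% and 2.62% in EVs and 14.5 to 15.5% in cells, and ACA8 2.81%, 2.52% and 1.66% in EVs and 11.1 to 11.5% in cells.

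EV and cell shares were compared over 9 against 9 libraries with a two-sided exact permutation test within genotype (8000 arrangements, 6 shares adjusted together). The 6 shares are parts of 1 whole, so a higher share of 1 member lowers the others together, and the 6 tests are not independent. ACA40 was 29.4 percentage points higher in EVs, and ACA1, ACA32 and ACA8 were lower, with differences of -13.8, -11.6 and -8.89 points. Each of these 4 had the exact p of 0.00025, the smallest these arrangements can give (adjusted p = 0.000375). ACA18 was 10.8 points higher (exact p = 0.0025, adjusted p = 0.00275) and ACA25 differed by -5.99 points (exact p = 0.00275, adjusted p = 0.00275). The ACA18 difference had an adjusted p of 0.0556 without replicate number 3. Each of these 2 differences was small in 1 genotype. ACA18 took 10.9% ± 1.36 (SD, n = 3) in ATG12-/- EVs and 10.6% ± 0.116 in ATG12-/- cells, and ACA25 took 15.2% ± 2.62 in wild type EVs and 15.2% ± 0.522 in wild type cells. Between 3 and 3 EV libraries an exact permutation test cannot go below p = 0.1, and ACA40, ACA18, ACA32 and ACA25 reached that value in ATG7-/- against wild type (adjusted p = 0.15). All 6 reached it in ATG12-/- against wild type (adjusted p = 0.1).

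**Figure D4:**
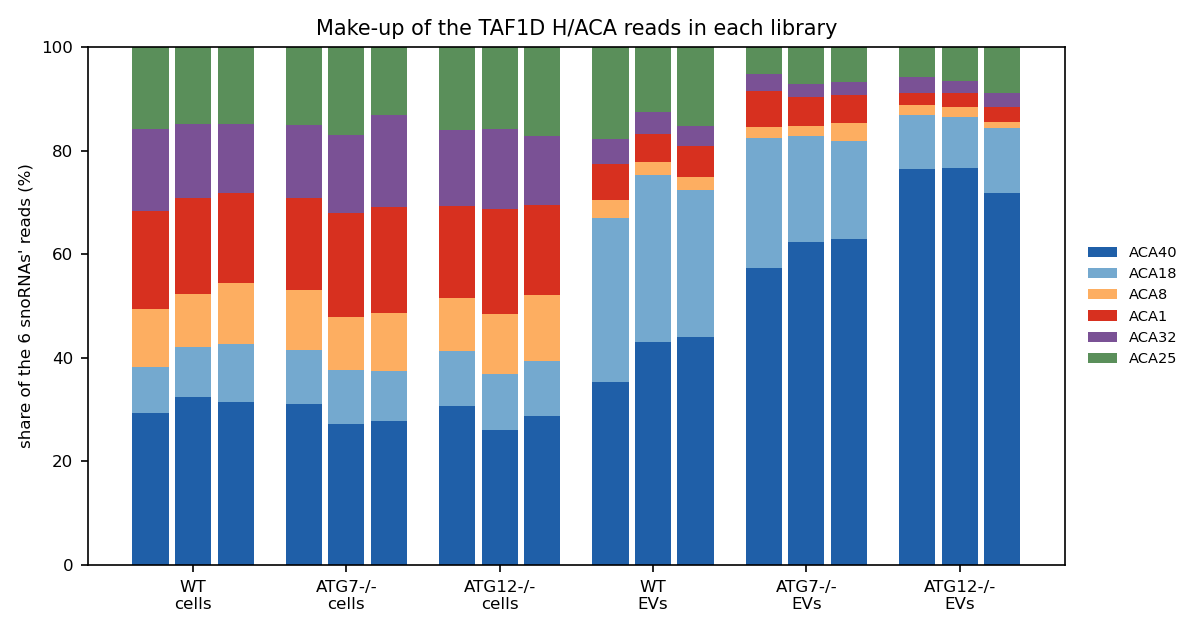
Share (%) of each snoRNA among the reads of the 6, in each of the 18 libraries, grouped by genotype and by cells or EVs. Cell bars look alike across genotypes, while ACA40 takes 40.8% on average in wild type EVs, 60.9% in ATG7-/- EVs and 75.0% in ATG12-/- EVs.

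Levels between members were compared per 100 nt of annotated length. Whether reads scale with length, or are recovered alike from each RNA, was not tested, so the order is one of reads. In wild type cells the order of mean normalised reads per 100 nt was ACA40 at 843, ACA1 at 478, ACA32 at 409.5, ACA25 at 386, ACA8 at 272 and ACA18 at 256. In wild type EVs it was ACA40 at 721, ACA18 at 518, ACA25 at 252, ACA1 at 105, ACA32 at 78.7 and ACA8 at 44.9. ACA18 thus stood last of the 6 in cells and next after ACA40 in EVs. In ATG12-/- EVs ACA40 was at 1260 per 100 nt and the next member, ACA18, at 173. Across the 6 groups, ACA8, ACA1 and ACA32 had the same order of EV means, ATG7-/- below ATG12-/- below wild type below all cell groups. None of these neighbouring EV groups overlapped, though overlap was examined for the members only. ACA18 differed only in that wild type EVs stood above the cells. ACA25 followed the first order, but its wild type EV range met that of ATG7-/- cells. For ACA40 the order was ATG7-/- EVs, ATG12-/- cells, wild type EVs, ATG7-/- cells, wild type cells and ATG12-/- EVs, and the middle 4 groups overlapped each neighbour among themselves but neither the lowest nor the highest group.

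The C/D box snoRNAs of the same gene were set beside them. The rows mgh28S-2409 and mgh28S-2411, were taken as the pair SNORD5 and SNORD6, because RefSeq lists like-numbered synonyms for these genes that are each 1 higher. No identifier ties either row to its gene, so the match holds only as far as the names do. In cells mgh28S-2409 had 1874, 1722 and 1570 normalised reads in wild type and mgh28S-2411 had 2194, 2254 and 2239. In wild type EVs they had 27.5, 24.9 and 36.5, and 327, 394 and 376. The first was thus 56.9-fold and the other 6.10-fold lower in wild type EVs than in cells (limma adjusted p = 1.186e-12 and 4.196e-13). In ATG7-/- EVs mgh28S-2411 had 56.7, 58.4 and 49.1, a log2 change of -2.72 from wild type EVs (SE 0.15, limma adjusted p = 1.516e-08). In ATG12-/- EVs it had 156, 147 and 158 (log2 change -1.24, SE 0.15, limma adjusted p = 2.793e-05). For mgh28S-2409 the log2 changes were -1.65 (limma adjusted p = 0.01006) and -0.89 (0.1686), from 4 to 25 reads a library. Its change in ATG12-/- EVs passed with library totals (-1.23, adjusted p = 0.0389) and without ATG12-/- EV replicate 3 (-1.35, 0.0474).

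Both rows passed the test in ATG12-/- cells against wild type cells, where none of the 6 H/ACA snoRNAs did, with log2 changes of -0.92 for mgh28S-2409 (SE 0.16, limma adjusted p = 0.001868) and -0.62 for mgh28S-2411 (SE 0.17, 0.01789). The mgh28S-2411 call was lost with library totals (-0.39, adjusted p = 0.0777), with edgeR (0.0561), without wild type cell replicate 1 (0.0601), 2 (0.0582) or 3 (0.0507), and without ATG12-/- cell replicate 3 (0.0842). In that comparison 68 of 136 C/D box snoRNAs were called lower, 36 with library totals and 101 with microRNA factors, and 11 of 87 other H/ACA snoRNAs, 1 and 25 with those factors. The median log2 change of the other H/ACA snoRNAs was -0.19, and 0.03 with library totals. The log2 ratio of the 6 members' reads to the reads of the 2 C/D rows was -0.21 ± 0.10 (SD, n = 3) in wild type cells, -0.12 ± 0.29 in ATG7-/- cells and 0.37 ± 0.23 in ATG12-/- cells. It differed by 0.58 between ATG12-/- and wild type cells (exact permutation p = 0.1, the smallest possible). In EVs it was 2.50 ± 0.11, 3.34 ± 0.37 and 3.62 ± 0.23. The ratio was 3.14 higher in EVs than in cells (two-sided exact permutation within genotype, p = 0.00025, the smallest these arrangements can give). The 2 classes as a whole differed in the same direction. In wild type EVs against cells the median log2 difference was -3.54 over 136 C/D box snoRNAs and -1.02 over 87 other H/ACA snoRNAs. These medians were -5.33 and -3.09 in ATG7-/-, and -4.055 and -1.84 in ATG12-/-. In ATG7-/- and in ATG12-/- EVs the ratio was 0.84 and 1.13 above wild type EVs, each at the exact p of 0.1 that 3 against 3 libraries allow at best. With ACA40 left out the rise was smaller in ATG7-/- EVs and was not seen in ATG12-/- EVs. ACA40 fell least of the 6 in ATG7-/- EVs and alone was higher in ATG12-/- EVs. Leaving it out was therefore bound to lower these differences, and what the rise rests on was not tested. For the other 5 members, a sum chosen after seeing the data, the ratio was 1.74 ± 0.23 in wild type EVs, 1.98 ± 0.29 in ATG7-/- EVs and 1.62 ± 0.12 in ATG12-/- EVs, with differences from wild type of 0.24 (exact permutation p = 0.3) and -0.12 (p = 0.5). Against cells the ratio of these 5 was still 2.27 higher in EVs (exact permutation p = 0.00025).

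By likeness to the mean log2 level of the 6 over all 18 libraries, the nearest of 899 other features were U68 (SNORA68, H/ACA) with Pearson's r of 0.994, E3 with 0.992, U32A (SNORD32A, C/D) with 0.990, U37 (SNORD37, C/D) with 0.989 and ACA19 (SNORA19, H/ACA) with 0.988. RefSeq synonyms tie E3 to both SNORA63 and SNORD12C. Over the 9 EV libraries the nearest were U70 (SNORA70, H/ACA) with 0.995, E3 with 0.993, ACA11 (SCARNA22) with 0.992, HBII-180A (SNORD88A, C/D) with 0.991 and U83A (SNORD83A, C/D) with 0.991. These libraries share their groups and scaling factors, so r describes the group pattern and carries no test. Between members over the 9 EV libraries, r ran from 0.41 for ACA1 and ACA40 to 0.99 for ACA1 and ACA18. U70 had 1213 ± 68.7 normalised reads (SD, n = 3) in wild type EVs, 300.0 ± 84.9 in ATG7-/- EVs and 679 ± 65.9 in ATG12-/- EVs. U68 had 465 ± 55.0, 54.0 ± 9.92 and 164 ± 24.1 in the same groups.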

How the data were processed

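The authors deposited 1 table of small RNA features by library. Its making involved bedtools, DESeq2, cutadapt 2.3 and Bowtie2 2.3, per the submitters' processing notes, which name hg38 and GRCh38 as builds. The annotation, filters and treatment of multiply matching reads are not given in the sources used here. The deposited values are a scaled signal: in every library 100.0% were whole multiples of 1 step (tolerance 1e-06), and recomputed median-of-ratios factors equalled the inverse steps, so whole reads were recovered.

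The unit fixed the main test: limma 3.58.1 (R 4.3.3), with a trend of variance on mean level, applied to log2(normalised reads + 1) of features reaching 10 in at least 3 fitted libraries. The pseudocount understates changes of low features. EV comparisons used the 9 EV libraries, cell comparisons the 9 cell libraries, others all 18. P-values were adjusted by Benjamini-Hochberg over all features tested, a call is an adjusted p under 0.05, and tests are two-sided. limma's intervals are at 95%. edgeR 4.0.16 and DESeq2 1.42.0 on the recovered reads were alternatives, beside other pseudocounts, filters, scalings, a replicate block and leaving out each library. Shares of reads used exact permutation. The limma code was tested on simulated reads with known changes, for ATG7-/- against wild type EVs only. The permutation code was not tested in this way.

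Sequences and positions come from GENCODE release 29, and the sequence of ACA18 is not reported here. Older names were matched to symbols by RefSeq synonyms. Named features follow a written rule: the 6 members, the C/D box snoRNAs inside TAF1D, the 5 features most like the members over 18 and over 9 libraries, and a list of blood and liver microRNAs, of which miR-451a was not analysed here. The members and lists were chosen with earlier results of these data known. No 2 replicates were copies (chi-square per degree of freedom 5.56 to 91.4). P-values set a difference against the variation between these libraries. With a single clone per knockout they hold no measure of variation between clones.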

Additional observations from a re-analysis of the deposited data

Results flagged for a closer look

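For 10 results the change in EVs differed from the change in cells of the same knockout, by limma's test of that difference over all 18 libraries. Of all 905 features tested, 28.7% were called lower and 26.3% higher for ATG7, and 12% and 14.4% for ATG12. Of the 87 other H/ACA snoRNAs, 77 were lower and 0 higher for ATG7, and 31 and 8 for ATG12. For ATG7 the differences of log2 changes were -1.81 for ACA1, -2.26 for ACA18, -2.92 for ACA25, -2.38 for ACA32, -1.01 for ACA40 and -1.83 for ACA8. For ATG12 they were -1.08 for ACA1, -1.54 for ACA18, -1.13 for ACA25 and 1.09 for ACA40. Both sets share the wild type libraries. Groups of 3 libraries were not searched for single outlying values.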

How the results depend on the processing

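The 6 members kept their direction and their call in ATG7-/- EVs against wild type EVs in all 96 combinations of member and alternative, and so did ATG7-/- EVs against ATG7-/- cells. The other comparisons of EVs or of changes kept 93 of 96 (ATG12-/- EVs against cells), 92 of 96 (wild type EVs against cells), 89 of 96 (ATG12-/- against wild type EVs), 87 of 96 (ATG12-/- against ATG7-/- EVs), 131 of 132 (ATG7 difference of changes) and 123 of 132 (ATG12 difference of changes). The count of members higher in ATG12-/- EVs than in wild type fell from 1 to 0 with library totals and with microRNA factors, and the count lower was 3 to 5 without 1 library. With library totals 0 members were higher than in cells in wild type or ATG12-/- EVs, where ACA18 turned to -0.49 and ACA40 to -1.24. For the ATG12 difference of changes, 5 members were lower, in place of 3, with library totals, with TMM over all features and with edgeR, 3 to 5 without 1 library, and 0 were higher with library totals. With microRNA factors 6 were lower in ATG7-/- cells.

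Uncalled values near 0 in cells changed sign. In ATG7-/- against wild type cells, library totals gave 0.065 for ACA18, 0.014 for ACA25 and 0.025 for ACA8, DESeq2 gave 0.061, 0.028 and 0.030, edgeR gave 0.021 for ACA18, and microRNA factors gave -0.48 for ACA1 and -0.49 for ACA32. In ATG12-/- against wild type cells, library totals gave 0.088 for ACA1, 0.18 for ACA18, 0.17 for ACA25, 0.065 for ACA32 and 0.12 for ACA8. TMM gave 0.0056, 0.10, 0.092 and 0.040 for ACA1, ACA18, ACA25 and ACA8, edgeR 0.0094, 0.093, 0.10 and 0.043, and DESeq2 0.0053, 0.094, 0.099 and 0.041. In ATG12-/- against ATG7-/- cells, library totals gave 0.12, 0.034 and 0.098 for ACA18, ACA40 and ACA8, TMM 0.14, 0.056 and 0.12, and microRNA factors 0.26, 0.18 and 0.24, with 0.11 for ACA1 and 0.097 for ACA32. For ACA18 and ACA8, edgeR gave 0.073 and 0.052 and DESeq2 0.033 and 0.012. Without 1 library, ATG7-/- against wild type cells ran from -0.035 to 0.085 for ACA1, -0.17 to 0.10 for ACA18, -0.21 to 0.11 for ACA25, -0.033 to 0.083 for ACA32 and -0.23 to 0.018 for ACA8. ATG12-/- against wild type cells ran from -0.16 to 0.062 for ACA18 and -0.13 to 0.055 for ACA25. ATG12-/- against ATG7-/- cells ran from -0.15 to 0.12 for ACA18, -0.16 to 0.15 for ACA25, -0.22 to 0.080 for ACA40 and -0.14 to 0.12 for ACA8.

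Without 1 replicate number, share differences (percentage points) ran from -0.94 to 0.20 for ACA8 and -0.32 to 0.064 for ACA1 in ATG7-/- against wild type EVs, and from -0.014 to 1.41 for ACA25 in ATG12-/- against ATG7-/- EVs. In ATG7-/- cells they ran from -0.42 to 1.08 for ACA18, -0.22 to 0.31 for ACA8, -0.70 to 2.41 for ACA32 and -1.17 to 0.78 for ACA25. In ATG12-/- cells they ran from -0.14 to 1.15 for ACA8, -0.39 to 0.90 for ACA1 and -0.72 to 0.55 for ACA32. Summed reads gave 0.059 for ACA8 in ATG7-/- cells and 0.019 for ACA32 in ATG12-/- cells. The EV against cell share of ACA18 had an adjusted p of 0.0556 without replicate number 3. The log2 ratio of H/ACA to C/D reads in ATG7-/- cells ran from -0.078 to 0.27. With ACA40 left out, an alternative chosen after seeing the data, that ratio differed by -0.12 in ATG12-/- against wild type EVs and by -0.36 in ATG12-/- against ATG7-/- EVs, in place of 1.13 and 0.29. The cause of these changes was not tested.

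Same-numbered samples did not deviate together: in no comparison were all 3 correlations over 0.1 (range -0.38 to 0.26). With the replicate number as a block, 5 of 6 members were higher in ATG12-/- than in ATG7-/- EVs (ACA1 0.56, adjusted p = 0.0591) and no other member call changed.

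Counts over all features moved more. Scalings changed calls higher in ATG7-/- EVs from 285 to 147 with library totals and 161 with microRNA factors, and in ATG12-/- EVs from 192 to 87 and 66, with calls lower from 179 to 307 with library totals. Of the calls, 53.7% were higher in ATG7-/- EVs, 31.4% with library totals and 36.5% with microRNA factors, and 51.8%, 22.1% and 21.4% in ATG12-/- EVs. In cells, alternatives gave 34 to 517 lower and 20 to 111 higher for ATG7-/- against wild type (71 and 72 in the main test), 62 to 260 and 18 to 104 for ATG12-/- against wild type (155 and 64), and 31 to 158 and 21 to 120 for ATG12-/- against ATG7-/- (123 and 48). Against cells, library totals gave 678 lower and 150 higher in place of 388 and 352 for wild type EVs, 719 and 138 in place of 387 and 362 for ATG7-/-, and 757 and 115 in place of 372 and 355 for ATG12-/-. The differences of changes ranged from 202 to 329 lower and 71 to 353 higher for ATG7 (260 and 238) and from 85 to 266 and 17 to 160 for ATG12 (109 and 130). Depth limits ACA8 and ACA32 most, at 10 to 18 reads in each ATG7-/- EV library. Counting error understates the spread, since PCR copies are not independent molecules.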

Other observations

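One microRNA also lies inside TAF1D, miR-1304, and was picked after its values were seen. Its 5p arm had 1.98 to 5.59 normalised reads in the 9 cell libraries and 0 to 3.98 in the 9 EV libraries, and its 3p arm had at most 1 read in any library. These are too few reads to set beside the snoRNAs.

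Features most like the mean of the 6 snoRNAs over the 9 cell libraries were named by the same measure after the data were seen. They were ACA48 (Pearson's r 0.953), ACA26 (0.945), HBII-429 (0.922), ACA24 (0.921) and U72 (0.920). The members themselves varied in likeness in cells, with r from 0.139 for ACA25 and ACA32 to 0.807 for ACA1 and ACA32. ACA48 and ACA26 are H/ACA RNAs of other host genes, and ACA26 is a small Cajal body RNA. U72, an H/ACA snoRNA, had 1839 ± 194 normalised reads (SD, n = 3) in wild type EVs, 71.2 ± 21.3 in ATG7-/- EVs and 144 ± 7.44 in ATG12-/- EVs, beside 803 ± 93.2, 887 ± 317 and 747 ± 105 in wild type, ATG7-/- and ATG12-/- cells. ACA24 was low in all EV groups, at 31.6 ± 17.3, 19.6 ± 5.11 and 36.6 ± 2.38, against 1324 ± 63.4 in wild type cells.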
